A study of Mus musculus with 16 samples.

Results

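The genes of 4 signature cytokines of Th17 cells, Il17a (ENSMUSG00000025929), Il17f (ENSMUSG00000041872), Il21 (ENSMUSG00000027718) and Il22 (ENSMUSG00000074695), were followed across 16 RNA-seq libraries of mouse CD4 T cells labelled as deficient or sufficient in Sin3A. The 4 genes were chosen by name, and all 4 were found among the 8552 genes that the deposited table names in its 17850 rows. All 4 passed the filter on low values, which left 14138 rows for testing, 6683 of them with a gene name. Every gene that the table names has a log2 fold change below 0 in the authors' deposited comparison of deficient with sufficient Th17 cells, so a gene with the opposite direction could not appear under its name.

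Sin3A is the scaffold of a corepressor complex that carries histone deacetylases. The cells came from C57BL/6 J mice of about 2 months with the genotype Rosa26-CreERT2 +/- Sin3AF/F, in which a tamoxifen-activated Cre recombinase, expressed from the ubiquitous Rosa26 locus, can excise a floxed part of Sin3a. Every group carried the Cre allele and the floxed alleles. Deficient Th17 cells were kept for 6 days with IL-7 and tamoxifen and then for 3 days under Th17 polarizing conditions, and sufficient Th17 cells were treated alike but without tamoxifen. Deficient IL-7 cells had the 6 days with IL-7 and tamoxifen alone, and sufficient IL-7 cells the 6 days with IL-7 alone. Each group held 4 libraries, named by 4 numbers that recur in all groups, of which 1 is labelled female and 3 male. The labels do not say whether the numbers stand for animals or cultures, though each number has its own sex label. The main fit left the number out, and a hint of pairing is described further below. The p-values given here thus reflect only how far these libraries spread, and that spread may be technical. Libraries treated with tamoxifen but without floxed alleles were not analysed here, so deletion and tamoxifen cannot be told apart.

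IL-17A and IL-17F are related cytokines that form homodimers and a heterodimer and act through the receptor chains IL-17RA and IL-17RC on epithelial and stromal cells, where they call in neutrophils. IL-21 acts back on T cells, B cells and natural killer cells through IL-21R and the common gamma chain, and IL-22 acts through IL-22RA1 and IL-10RB on epithelial barriers. In naive CD4 T cells these genes are largely silent, and Il17a and Il17f are turned on in Th17 cells by STAT3, BATF and IRF4 among other factors.

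The stretch just before each gene's start is shown because these are the letters closest to the starts of the 4 transcripts that rose together under polarization. Sequences are from RefSeq, build GRCm38.p6, 250 bases before the start of each gene, read 5′ to 3′ on the strand of the gene. All 4 genes had an entry. They lie at chr1:20730655-20730904 on the plus strand (Il17a), chr1:20784271-20784520 on the minus strand (Il17f), chr3:37232637-37232886 on the minus strand (Il21) and chr10:118204714-118204963 on the plus strand (Il22). Capitals mark matches of AGGTCA (a nuclear receptor half-site), TGANTCA (the AP-1 motif) and TATAAA (the TATA box) on either strand.
Il17a: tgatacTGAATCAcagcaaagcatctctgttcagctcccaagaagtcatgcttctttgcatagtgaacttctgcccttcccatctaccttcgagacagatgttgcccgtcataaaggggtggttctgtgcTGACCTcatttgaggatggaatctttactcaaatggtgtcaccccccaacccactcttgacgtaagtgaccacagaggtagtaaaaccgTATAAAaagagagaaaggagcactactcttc
Il17f: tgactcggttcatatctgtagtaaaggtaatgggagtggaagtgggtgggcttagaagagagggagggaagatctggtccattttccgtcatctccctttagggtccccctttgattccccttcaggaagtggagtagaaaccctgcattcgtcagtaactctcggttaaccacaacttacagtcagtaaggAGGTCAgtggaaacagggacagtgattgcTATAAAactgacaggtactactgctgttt
Il21: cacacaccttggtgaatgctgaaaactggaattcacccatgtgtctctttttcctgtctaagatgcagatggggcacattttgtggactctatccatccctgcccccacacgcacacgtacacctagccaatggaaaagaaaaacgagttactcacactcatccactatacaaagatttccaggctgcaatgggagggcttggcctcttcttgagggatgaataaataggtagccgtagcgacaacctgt
Il22: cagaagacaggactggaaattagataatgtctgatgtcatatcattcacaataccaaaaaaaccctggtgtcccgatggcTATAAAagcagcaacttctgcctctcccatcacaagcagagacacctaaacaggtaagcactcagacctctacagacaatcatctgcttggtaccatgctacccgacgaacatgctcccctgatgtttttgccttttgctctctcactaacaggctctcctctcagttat
The window searched ran from 250 bases before to 50 bases after the start, and positions count back from the start, where -1 is the last base before it. In Il17a, AGGTCA lay on the other strand with its leftmost base at -120, TGANTCA at -244 and TATAAA at -31. In Il17f, AGGTCA lay on the strand of the gene at -58 and TATAAA at -29. Il21 held none of these 3 motifs, and Il22 held TATAAA at -170. The core letters read by NFAT, GGAAA, are not in capitals and were found in Il17f, Il21 and Il22, while the STAT motif TTCNNNGAA was found in none of the 4 windows. No match overlapped another. Of 32851 promoters of the same length, 16.3% held AGGTCA, 7.81% TGANTCA, 13.6% TATAAA, 61.3% GGAAA and 8.30% TTCNNNGAA. These matches describe letters only.

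Normalized counts in the deposited table had lost their decimal point and were restored to whole reads, at 19754337 to 28591289 reads per library. Of the 64 values of the 4 genes, 1 was raised by a power of 10, Il22 in the sufficient Th17 library D3959, to 10950 reads. Sin3a averaged 1774 ± 49.8 normalized counts in deficient Th17 cells and 2106 ± 181 in sufficient Th17 cells, and 2211 ± 98.2 in deficient IL-7 cells against 2524 ± 249 in sufficient IL-7 cells (SD, n = 4 each). The fall in Th17 cells was -0.24 on the log2 scale (SE 0.08, adjusted p = 0.0113, limma), and the difference in IL-7 cells was -0.19 (adjusted p = 0.201). The median log2 change in Th17 cells was -0.04 over all rows and -0.41 over the named genes, so Sin3a fell less than the median named gene. Of the Sin3a values in IL-7 cells, 3 in deficient and 1 in sufficient libraries were raised by a power of 10. The labels do not say which part of Sin3a is floxed, so reads outside it count in full. The T cell genes Cd4, Cd3e and Trac were present in every group. They averaged 5955 ± 278, 5268 ± 122 and 4386 ± 375 normalized counts in deficient Th17 cells. In sufficient Th17 cells they averaged 8003 ± 1005, 7378 ± 255 and 7189 ± 418 (SD, n = 4 each). Their means were 11461, 11774 and 10980 in deficient and 12026, 12179 and 9788 in sufficient IL-7 cells. Of 9 CD4 T cell markers tested, 6 were called lower in deficient Th17 cells, beside 54.2% of the named genes tested. Cd247, Trbc1 and Trbc2 were not called (adjusted p = 0.190, 0.122 and 0.0737, limma).

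Under Th17 polarization the RNA of the 4 cytokine genes became abundant, and in deficient Th17 cells they were below their sufficient levels by unequal amounts. Il17a was most affected and stood at 7.94% of its sufficient level. Il22 stood at 23.2% and Il17f at 28.2%, while Il21 stood at 72.6%. With adjustment over all 14138 rows, Il17a, Il17f and Il22 fell and Il21 did not pass. Called lower were thus 3 of 4 genes, beside 28.6% of all rows tested and 54.2% of the named genes tested, and a call as such was thus frequent among named genes. The median log2 change was -0.04 over all rows and -0.41 over the named genes. In bulk samples such as these, fewer cells of a type and less RNA per cell cannot be told apart.

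Il17a had 133, 168, 162 and 349.7 normalized counts in the deficient Th17 libraries D3TAM955, D3TAM957, D3TAM959 and D3TAM960, against 1072, 2275, 2953 and 3929 in the sufficient Th17 libraries D3955, D3957, D3959 and D3960. The groups did not overlap, and the library D3TAM960 was the highest of the deficient ones. The means were 203 ± 98.9 in deficient and 2557 ± 1201 in sufficient Th17 cells (SD, n = 4 each), 12.6 times more in sufficient cells. The fitted log2 change was -3.60 (SE 0.47, adjusted p = 3.71e-06, limma).

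Il17f had 8842, 8180.5, 7591 and 7028 normalized counts in the deficient Th17 libraries, in the same order of numbers, against 20569.7, 26033, 35932 and 29471 in the sufficient ones. Again no deficient library reached a sufficient one, and the deficient libraries lay close together. The means were 7910.2 ± 779 in deficient and 28001 ± 6433 in sufficient Th17 cells (SD, n = 4 each). The log2 change was -1.80 (SE 0.33, adjusted p = 0.000145, limma).

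Il22 had 1210.4, 1827, 1057 and 2338 normalized counts in the deficient Th17 libraries, against 3343, 6909, 9521 and 7920.3 in the sufficient ones. The groups did not overlap, but the lowest sufficient library, D3955, was 1.43 times the highest deficient one. The means were 1608 ± 589 in deficient and 6924 ± 2618 in sufficient Th17 cells (SD, n = 4 each), with a log2 change of -2.08 (SE 0.77, adjusted p = 0.0277, limma). The call was not kept with a pseudocount of 0.5 (adjusted p = 0.0660), nor without D3TAM955 (0.0606), D3TAM959 (0.0697), D3957 (0.0549), D3959 (0.0697) or D3960 (0.0633), at log2 changes of -1.97, -1.90, -2.05, -1.89 and -1.98. The SD of the log2 values of Il22 was 0.53 in deficient and 0.66 in sufficient Th17 cells. In IL-7 cells it was 1.19 in deficient and 2.18 in sufficient ones, and in the fit all groups share the same spread. A limma fit on the 8 Th17 libraries alone gave an SE of 0.30 and an adjusted p of 9.92e-05. Over all alternatives the adjusted p ran from 3.45e-06 to 0.166.

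Il21 had 3815, 5105, 3432 and 4003 normalized counts in the deficient Th17 libraries, against 4929, 5361, 6134 and 6089 in the sufficient ones. The ranges overlapped, because D3TAM957 lay above D3955. The means were 4089 ± 718 in deficient and 5628 ± 585 in sufficient Th17 cells (SD, n = 4 each). The log2 change was -0.47 with a 95% interval from -1.38 to 0.44 (adjusted p = 0.368, limma), an interval that holds both 0 and the median of the named genes. The SD of the log2 values was 0.24 in deficient and 0.15 in sufficient Th17 cells, against 1.13 in deficient and 0.87 in sufficient IL-7 cells, and the fit of all groups shares one spread. In the Th17 libraries alone the SE was 0.12 and the adjusted p 0.00418, and limma voom on the restored reads gave 0.00163, while over all alternatives the adjusted p ran from 0.00163 to 0.517. Groups without overlap, with the deficient one lower, were seen for 3 of the 4 genes, for 23.4% of all rows tested and for 44.4% of the named genes tested.

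**Figure D1:**
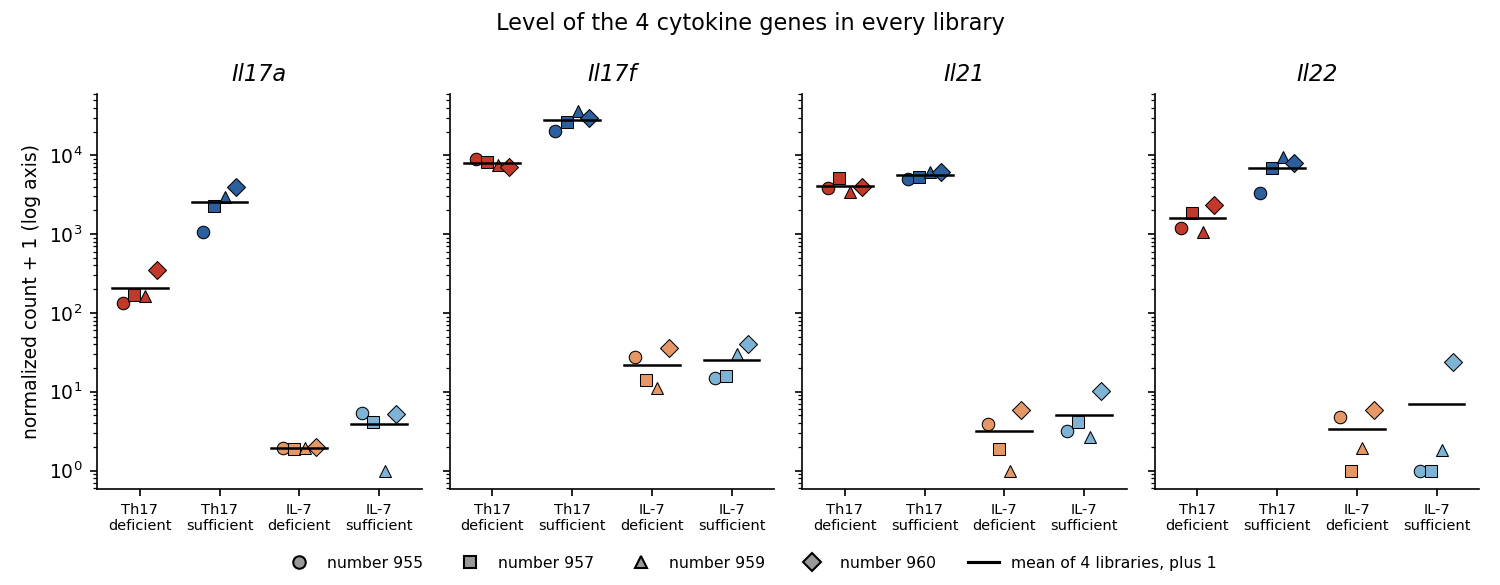
Normalized count plus 1, on a log axis, of Il17a, Il17f, Il21 and Il22 in each of 16 libraries, with 1 point per library, the symbol giving the library number and the bar the mean of 4 libraries plus 1. Deficient and sufficient Th17 libraries are apart for Il17a, Il17f and Il22 and overlap for Il21, and all IL-7 libraries lie under 40 counts.

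The levels of the 4 genes were not lower in proportion. Inside each Th17 library the ratio of Il17a to each of the other 3 was lower in deficient cells, and the ratios of Il22 and of Il17f to Il21 were lower as well. The ratio of Il22 to Il17f showed no such separation. Ratios of normalized counts were compared between the groups on the log2 scale, and such ratios are not corrected for gene length. The log2 ratio of Il17a to Il21 was -4.41 ± 0.64 in deficient and -1.28 ± 0.66 in sufficient Th17 cells (SD, n = 4 each), a difference of -3.13. For Il17a over Il17f it was -5.38 ± 0.74 in deficient and -3.57 ± 0.55 in sufficient cells, a difference of -1.81, and for Il17a over Il22 it was -3.01 ± 0.36 in deficient and -1.49 ± 0.32 in sufficient cells, a difference of -1.53. Il22 over Il21 differed by -1.61 and Il17f over Il21 by -1.33. In each of these 5 pairs the groups did not overlap, and the exact two-sided permutation test over 8 libraries gave p = 0.0286, the smallest that 4 against 4 libraries allow, and 0.0343 adjusted over the 6 pairs. Il22 over Il17f was -2.37 ± 0.61 in deficient and -2.09 ± 0.36 in sufficient Th17 cells, a difference of -0.28 (exact permutation p = 0.514, n = 4 each), and the groups overlapped. Without D3TAM955 the adjusted p was 0.0571 for the ratios of Il17a to Il22, Il17a to Il21 and Il17f to Il21, at -1.47, -2.99 and -1.41, and 0.0686 for Il17a to Il17f (-1.58) and Il22 to Il21 (-1.52). It was also 0.0686 for Il17a to Il17f without D3955 (-2.03), D3957 (-1.79), D3959 (-1.82) or D3960 (-1.58), and for Il22 to Il21 without D3TAM957 (-1.58) or D3TAM959 (-1.51).

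**Figure D2:**
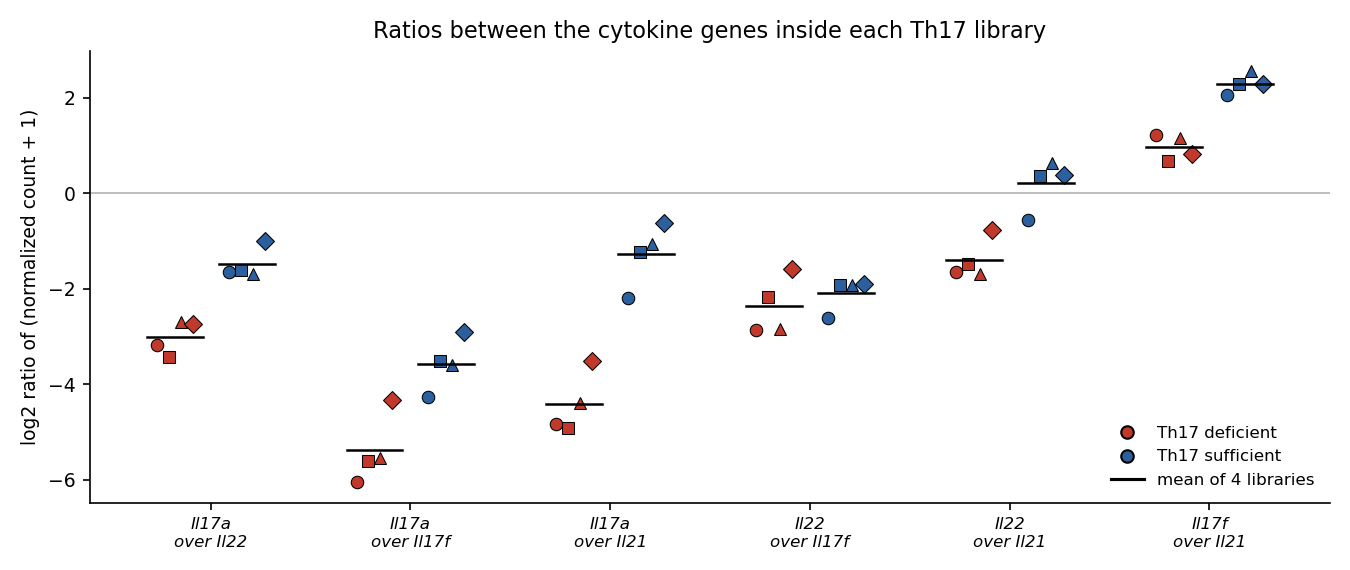
Log2 ratio of the normalized counts plus 1 of each pair of the 4 genes in each Th17 library, with 1 point per library, deficient left of sufficient and the mean of 4 libraries as a bar. The groups are apart in 5 pairs and overlap for Il22 over Il17f.

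Counts were divided by the summed exon length of each gene (GENCODE M21), 1171 bases for Il17a, 2022 for Il17f, 5259 for Il21 and 1110 for Il22, and by each library's restored total, which gives RPKM, to compare levels between genes. On this RPKM scale Il17f led in every Th17 library. In deficient Th17 cells Il17f averaged 180 ± 22.9, Il22 66.3 ± 22.7, Il21 35.8 ± 6.38 and Il17a 7.91 ± 3.59 (SD, n = 4 each). In sufficient Th17 cells Il17f averaged 629 ± 138, Il22 283 ± 105, Il17a 98.9 ± 45.4 and Il21 48.6 ± 4.42 (SD, n = 4 each). The order of Il17a and Il21 by mean RPKM was thus exchanged between the groups. By normalized count, Il21 had the higher mean in deficient (4089 against 203) and in sufficient Th17 cells (5628 against 2557). The exchange therefore depends on the summed exon lengths used. Ranges over libraries overlapped for Il22 and Il21 in deficient Th17 cells, and for Il22 and Il17a and for Il17a and Il21 in sufficient ones. In the sufficient library D3955 Il17a stood at 42.3 RPKM and Il21 at 43.4 RPKM, while in the other 3 sufficient Th17 libraries Il17a was above Il21. The sum of the 4 levels was 290.4 ± 26.7 RPKM in deficient and 1059 ± 280.2 RPKM in sufficient Th17 cells. Il17a made up 2.73% ± 1.21 of that sum in deficient and 9.02% ± 2.79 in sufficient Th17 cells, and Il21 made up 12.3% ± 1.34 in deficient and 4.79% ± 1.01 in sufficient Th17 cells. Il17f held 62.4% ± 8.03 in deficient and 60.2% ± 5.21 in sufficient Th17 cells, and Il22 held 22.6% ± 6.87 in deficient and 26.0% ± 4.02 in sufficient Th17 cells (SD, n = 4 each).

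**Figure D3:**
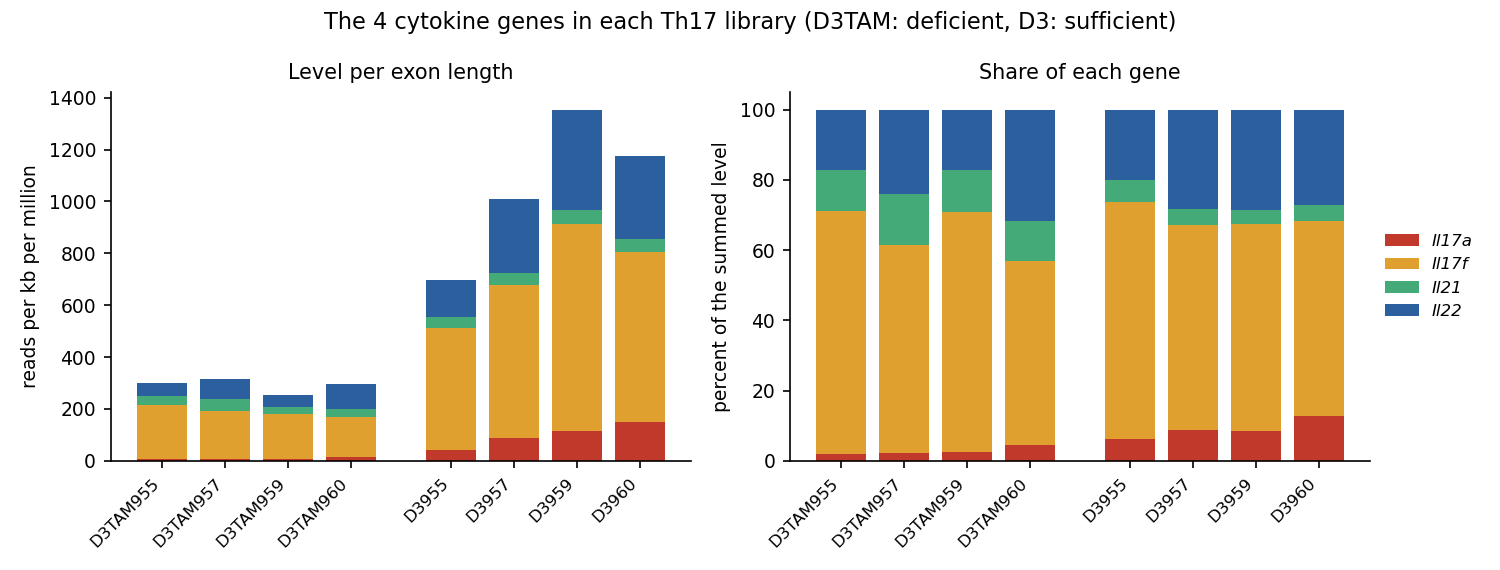
RPKM of the 4 genes stacked for each Th17 library (left), and the percent of the stack that each gene holds (right), with deficient libraries (D3TAM) left of sufficient ones (D3). The stacks reach 252 to 315 in deficient and 696 to 1355 in sufficient libraries, and the Il17a share is between 1.80% and 4.50% in deficient and between 6.09% and 12.8% in sufficient libraries.

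Before polarization the cytokine genes were close to silent in deficient and in sufficient IL-7 cells. Il17a had 1 read in each of the 4 deficient IL-7 libraries, and 4, 4, 0 and 5 reads in the sufficient ones. Il21 had 3, 1, 0 and 5 reads in deficient and 2, 4, 2 and 11 in sufficient IL-7 libraries (BASALTAM955, BASALTAM957, BASALTAM959 and BASALTAM960, against BASAL955, BASAL957, BASAL959 and BASAL960). Il22 had 4, 0, 1 and 5 reads in deficient and 0, 0, 1 and 27 in sufficient IL-7 libraries. Apart from 11 and 27 reads in BASAL960, these values stand at or near the limit that a count of 0 allows, 3 reads per library. Il17f was the exception, with 28, 15, 11 and 35 reads in deficient and 13, 19, 35 and 46 in sufficient IL-7 libraries. The sufficient library BASAL960 held the most reads of its group for each of the 4 genes. By normalized count, however, Il17a was highest in BASAL955 (4.30, against 4.23 in BASAL960).

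In IL-7 cells limma called 0 of the 4 genes (0 at an unadjusted p under 0.05, and 0 with limma voom), beside 3.58% of all rows tested and 3.23% of the named genes tested in either direction. The log2 change was -0.76 for Il17a (95% interval -1.74 to 0.22), -0.22 for Il17f (-0.91 to 0.47), -0.76 for Il21 (-1.67 to 0.14) and 0.08 for Il22 (-1.53 to 1.69). The adjusted p-values were 0.447, 0.801, 0.398 and 0.980. The direction for Il22 and Il17f turned with single libraries left out, and at this depth differences within these intervals were not detectable.

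The 4 cytokine genes rose under polarization in deficient cells and in sufficient cells. The groups did not overlap for 4 of 4 genes, beside 35.7% of all rows tested and 25.7% of the named genes in deficient cells, and beside 32.1% and 36.6% in sufficient cells. In the fit, 4 of 4 genes were called higher in deficient cells, beside 37.6% of all rows tested and 28.3% of the named genes tested. In sufficient cells 4 of 4 were called higher, beside 36.9% of all rows and 41.3% of the named genes. Because some IL-7 groups held few reads, the folds are given from the summed reads of each group over its summed size factors, with 95% Poisson intervals of the IL-7 count alone, which cover counting error only. Il17a was 219-fold higher in deficient Th17 cells than in deficient IL-7 cells (85.6 to 804), from 4 IL-7 reads in all, and 892-fold higher in sufficient Th17 cells than in sufficient IL-7 cells (522 to 1675). Il17f was 382-fold higher in deficient cells (310.1 to 475) and 1145-fold higher in sufficient cells (953 to 1389.8). Il22 was 698-fold higher in deficient cells (379 to 1455) and 1143-fold higher in sufficient cells (791 to 1719.5). Of the 28 reads of Il22 in sufficient IL-7 cells, 27 came from BASAL960, so the 1143-fold value and its interval rest on that library. Il21 was 1962-fold higher in deficient cells (1034 to 4291) and 1359-fold higher in sufficient cells (870.1 to 2257). Of the 19 reads of Il21 in sufficient IL-7 cells, 11 came from BASAL960. The fitted log2 changes on the normalized count plus 1 were 6.62 for Il17a, 8.63 for Il17f, 9.14 for Il22 and 10.63 for Il21 in deficient cells, and 9.46, 10.21, 11.29 and 10.33 in sufficient cells, with adjusted p-values from 1.42e-13 to 3.44e-09 in deficient and from 1.76e-14 to 2.62e-10 in sufficient cells (limma).

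Whether the deletion effect differed between Th17 and IL-7 cells was tested as an interaction. The deletion effect in Th17 minus that in IL-7 cells was -2.85 for Il17a (SE 0.66, adjusted p = 0.00262) and -1.58 for Il17f (SE 0.46, adjusted p = 0.0125), so 2 of 4 genes were past the threshold, beside 18% of all rows tested and 34.1% of the named genes tested in that direction (limma). For Il17a, Il21 and Il22 the IL-7 reads were so few that the pseudocount bounds how far the IL-7 effect can go below 0, so on this scale their interaction is a value and shows no difference in proportion between the stages. Il17f, with 11 to 46 reads per IL-7 library, is the gene for which the contrast can be read. For Il22 it was -2.16 with a 95% interval from -4.43 to 0.12 (adjusted p = 0.126), and for Il21 0.29 with an interval from -0.99 to 1.58 (adjusted p = 0.737). With limma voom the interaction did not pass for Il17a (adjusted p = 0.367) or Il17f (0.0548), and without the sufficient IL-7 library BASAL960 it passed for Il22 (-3.23, adjusted p = 0.00108). The same contrast is the difference between the polarization of deficient cells and that of sufficient cells.

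**Figure D4:**
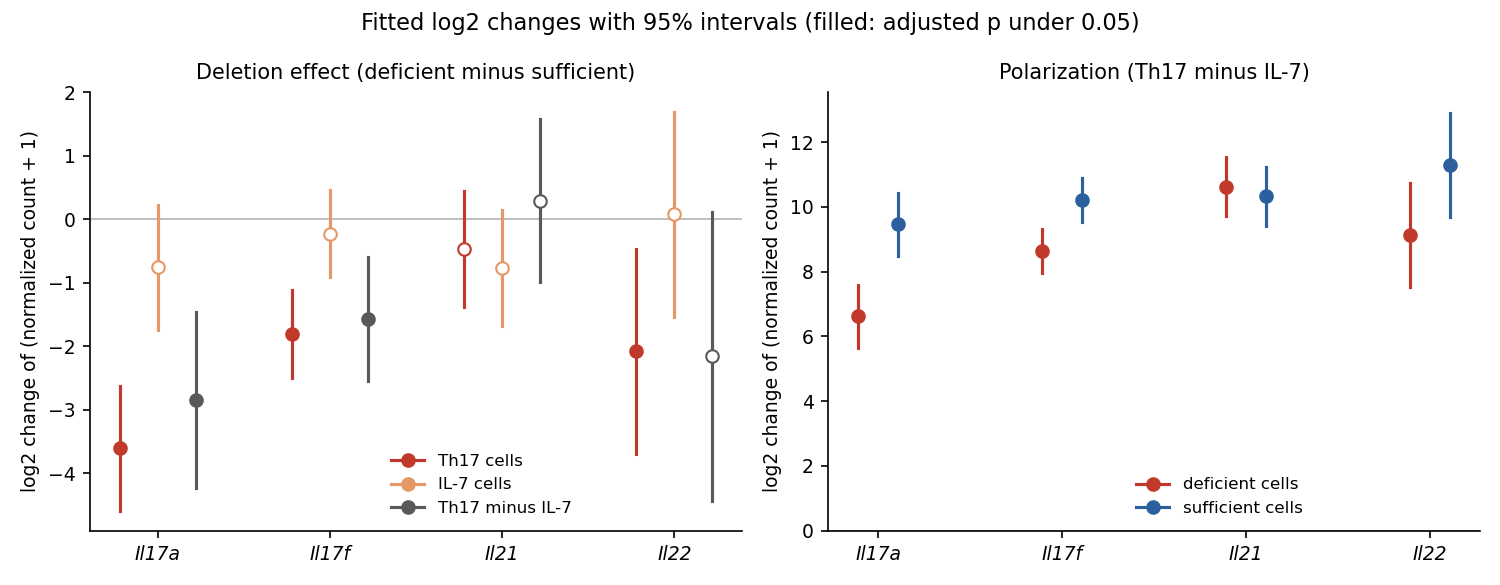
Fitted log2 change of the normalized count plus 1 with its 95% interval for each gene, for the deletion effect in Th17 cells, in IL-7 cells and their difference (left) and for polarization in deficient and in sufficient cells (right). Filled points have an adjusted p under 0.05. In Th17 cells Il17a (-3.60), Il22 (-2.08) and Il17f (-1.80) are filled and Il21 (-0.47) is open, and all polarization points lie between 6.62 and 11.29.

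Genes around the cytokines were taken from 5 lists with 111 entries in all, of which 67 are named in the authors' deposited table, 62 could be joined to a row and 41 passed the filters. In Th17 cells 30 of these 41 were called lower, beside 54.2% of the named genes tested, and none could be called higher because of how the table was made. Among transcription factors of the Th17 programme 10 of 15 tested genes were lower, with a median log2 change of -0.66. Fosl2, an AP-1 subunit, had 2779.8 ± 551 normalized counts in deficient and 10147 ± 1667 in sufficient Th17 cells (SD, n = 4 each), a log2 change of -1.87 (SE 0.14, adjusted p = 6.37e-09, limma). Nfkbiz, which encodes the nuclear IκBζ, changed by -1.75 (adjusted p = 1.15e-05), Hif1a, the oxygen-sensing factor that also drives glycolysis, by -1.60 (adjusted p = 7.88e-07), and Bhlhe40 by -1.49 (adjusted p = 0.000251). Rora, which encodes a nuclear receptor, was at -0.45 and did not pass (adjusted p = 0.0742, limma), and was chosen after its value was seen.

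Stat3 and Maf were not tested because the power of 10 of their IL-7 values was not settled, and they are named here for their known role after their values had been seen. Stat3 ranged from 12762 to 15921 normalized counts in deficient and from 13414 to 18136 in sufficient Th17 cells, and Maf from 1856 to 4265 in deficient and from 2669 to 4332 in sufficient Th17 cells, so the groups overlapped for both. The authors' deposited table gives log2 fold changes of -0.25 for Stat3 and -0.20 for Maf, with adjusted p-values of 0.269 and 0.712.

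Among receptors and signalling genes of the pathways that induce the programme, inhibitors included, 5 of 6 tested genes were lower, with a median log2 change of -0.44. Smad3, a transducer of TGF-β signals, changed by -0.67 (adjusted p = 0.00019), Gpr65, a proton-sensing receptor, by -0.73 (adjusted p = 0.000556), Socs3, an inhibitor of STAT3 signalling, by -0.40 (adjusted p = 0.0108) and Il18r1, a chain of the IL-18 receptor, by -0.48 (adjusted p = 0.0234), all by limma. Il23r, the receptor chain for IL-23, was not tested and is named after its values had been seen. It averaged 156 ± 67.4 normalized counts in deficient and 338 ± 42.5 in sufficient Th17 cells (SD, n = 4 each), without overlap, and the authors' deposited table gives -1.12 (adjusted p = 0.0158).

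Of the receptor chains of the IL-17, IL-21 and IL-22 families 4 of 4 tested genes were lower, with a median log2 change of -0.92. Il17rc, a chain of the receptor for IL-17A and IL-17F, changed by -1.16 (adjusted p = 0.0277) at only 3.53 ± 0.715 normalized counts in deficient and 10.5 ± 6.50 in sufficient Th17 cells. Il17rb, which binds IL-25, changed by -1.02 (adjusted p = 0.0236), Il10rb, which pairs with IL-22RA1, by -0.82 (adjusted p = 2.16e-05), and Il2rg, the common gamma chain of the IL-21 receptor, by -0.41 (adjusted p = 0.000282). Il2rg was also lower in deficient than in sufficient IL-7 cells, by -0.43 (adjusted p = 0.00629).

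Other cytokine genes of T cells were lower in 5 of 7 tested cases, with a median log2 change of -0.52. Il4, the Th2 cytokine, had 46.6 ± 9.55 normalized counts in deficient and 305 ± 165 in sufficient Th17 cells (SD, n = 4 each), a log2 change of -2.41 (SE 0.42, adjusted p = 8.82e-05, limma). Ifng, the Th1 cytokine, changed by -2.21 (adjusted p = 0.00876), Tnfsf8, the ligand of CD30, by -0.64 (adjusted p = 0.00247) and Osm, which encodes oncostatin M, by -0.52 (adjusted p = 0.00242). Genes that restrain the programme were lower in 6 of 9 tested cases, with a median of -0.46. Gata3, the Th2 factor, changed by -1.31 (adjusted p = 9.54e-06), Bcl6, the factor of follicular helper cells, by -0.66 (adjusted p = 0.00016), Ptpn2, a phosphatase that acts on STAT proteins, by -0.65 (adjusted p = 6.35e-05) and Stat5b by -0.59 (adjusted p = 1.09e-05). In IL-7 cells 6 of the 41 genes of all lists were called lower, beside 1.7% of all rows tested and 2.6% of the named genes tested.

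**Figure D5:**
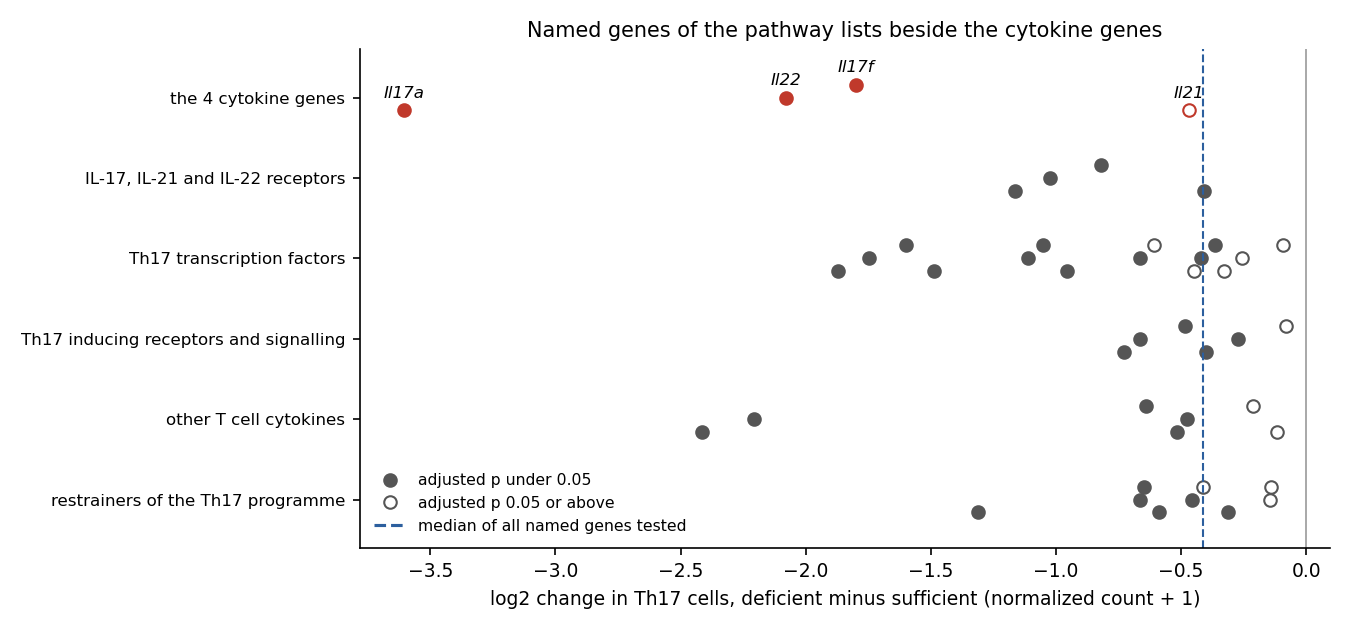
Log2 change in Th17 cells, deficient minus sufficient, of the 4 cytokine genes (top row) and of each tested gene of 5 lists, filled where the adjusted p is under 0.05, with the median of all named genes tested (-0.41) as a dashed line. Il17a lies further left than every list gene tested, and Il21 lies next to the median.

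Markers of other cells differed between the groups as well, but only markers with a fold change below 0 carry a name in the table, so lower sums in deficient cells follow from how it was made. Of 11 markers of gamma delta T cells and type 3 innate lymphoid cells, which can also make IL-17 and IL-22, 8 could be joined and none was at 0 in all 8 Th17 libraries. The summed normalized counts of the 7 that are in none of the 5 gene lists ran from 761 to 1658 in deficient and from 1419 to 3643 in sufficient Th17 cells, with overlap. Zbtb16, which encodes the factor PLZF of innate-like T cells, averaged 92.0 ± 29.6 in deficient and 895 ± 459 in sufficient Th17 cells, without overlap. The constant gene Tcrg-C2 averaged 435 ± 165 in deficient and 870.2 ± 287 in sufficient Th17 cells, with overlap. The constant gene Tcrg-C1 averaged 279 ± 95.6 normalized counts in deficient and 430 ± 128 in sufficient Th17 cells (SD, n = 4 each), with overlap, and Sox13, a factor of gamma delta T cells, 21.9 ± 10.6 in deficient and 30.6 ± 14.5 in sufficient ones. Sums of 7 of 8 markers of regulatory T cells ran from 33048 to 51666 in deficient and from 70365 to 77090 in sufficient Th17 cells. For the 6 of them that are in none of the 5 gene lists, the sums were 5625 to 11101 in deficient and 24303 to 28393 in sufficient Th17 cells. Those of 9 of 12 markers of CD4 T cells ran from 38398 to 40929 in deficient and from 52609 to 56434 in sufficient Th17 cells. For 5 of 10 markers of CD8 T and natural killer cells the sums were 667 to 1062 in deficient and 1159 to 2497 in sufficient Th17 cells, for 4 of 9 of B cells 61.7 to 189 in deficient and 145 to 331 in sufficient, and for 2 of 12 of myeloid cells 61.7 to 68.5 in deficient and 127 to 186 in sufficient Th17 cells. The part of these in the fall of the cytokine genes was not tested.

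Likeness of pattern was described by Pearson's r of the log2 values, with no test, among the named genes tested. Over the 16 libraries, which mostly reflect the step to Th17 cells, the 4 cytokine genes were related to each other with r from 0.950 (Il17a and Il21) to 0.992 (Il17f and Il21). Among the genes most like Il17a were Hnrnpa1, Exosc8 and Runx3 (r 0.990 to 0.992). Those most like Il17f were Ufsp2, Zak, Hdlbp and Aebp2 (0.993 to 0.995), those most like Il21 were Plod2, Stk35, Myo1c and Gm12534 (0.995 to 0.996), and those most like Il22 were Canx, Zak, Gm20721 and Tfg (0.990 to 0.992). After the group means were taken away, over the 8 Th17 libraries, Il17a and Il22 still had r = 0.882, while the other pairs ranged from 0.408 (Il17a and Il17f) to 0.701 (Il21 and Il22). By these deviations Errfi1, Actr10, Gm26865 and Ssr1 were most like Il17a (0.962 to 0.982), and Atg16l2, Furin, Gm22748 and Gm17040 most like Il17f (0.935 to 0.976). Hace1, Srsf1, Bcl3 and 4930512B01Rik were most like Il21 (0.950 to 0.964), and Tfrc, Mrpl18, Hax1 and Gpbp1 most like Il22 (0.964 to 0.988). With 8 points and 6683 genes, high values arise for many genes.

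The authors' deposited table, made with its own model, gives log2 fold changes of -3.65 for Il17a, -2.11 for Il22, -1.82 for Il17f and -0.46 for Il21, with adjusted p-values of 6.62e-18, 0.0267, 4.26e-12 and 0.00611. The same table places 1.18% of its 8552 genes below Il17a, 8.26% below Il22, 11.2% below Il17f and 53.2% below Il21.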

How the data were processed

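Polyadenylated RNA of purified CD4 T cells was sequenced paired-end with a stranded protocol, per the labels' protocols. The submitters' processing notes name Trim Galore 0.4.4, STAR 2.6, featureCounts, edgeR, DESeq2 and the build NCBIM37, without their roles. In the deposited table, gene counts had been divided by 1 size factor per library by the authors, and the decimal points were lost. The authors also deposited, per the file headers, log2 fold changes and their standard errors, a statistic (here a score, the fold change over that error) and p-values, raw and adjusted. These stand beside gene names in an order of their own, not that of the count rows. The headers do not name the comparison, which was identified from the values as deficient against sufficient Th17 cells.

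Whole reads were restored from the step of each library, at which 99.99% of nonzero values were whole multiples. Where digits left the power of 10 unclear, it was set by a negative binomial likelihood within groups, and 8.52% of nonzero values were raised. In 14581 rows (81.7%) every group reached a posterior of 0.95. A gene name was joined to a row where the row gave the authors' fold change and error within 1e-06 and the next row was at least 20 times further off. So 7882 of 8552 names (92.2%) were joined, and 11 of 1000 decoys. No column was unused.

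limma 3.58.1 (R 4.3.3; lmFit, eBayes with trend) was fitted to log2(normalized count + 1) in 1 fit of 16 libraries, for settled rows with a mean of at least 10 in 1 group, with Benjamini-Hochberg adjustment over 14138 rows and a threshold of 0.05. Every limma p-value in the text comes from that fit unless another is named. The pseudocount understates the change of low genes. Scaling by other factors moved the median change of all rows by less than 0.1. Ratios between cytokines were compared by exact two-sided permutation over 8 libraries (Python 3.11.15, numpy 2.4.6, scipy 1.17.1, pandas 2.3.3). The main limma fit and the restoring of reads were also run on simulated reads, each with the same spread for all rows. For the fit, simulated IL-7 groups had the mean of sufficient Th17 cells, so near-silent IL-7 groups were not covered. For the restoring, simulated rows were drawn from settled rows only. Named genes were the 4 cytokine genes, Sin3a, up to 4 called genes with the largest change of each list, and the 4 most like each cytokine gene by 2 measures. The members and the lists were chosen with earlier results of these data known. Some genes that the rule or the marker lists hold are not reported here.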

Additional observations from a re-analysis of the deposited data

Results flagged for a closer look

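Il17a in the deficient Th17 library D3TAM960 stood at 349.7 normalized counts, far above the other 3 deficient Th17 libraries. Its gap to the next library was 0.835 of the range of the group, past Dixon's critical value for 4 libraries. The library still lay below every sufficient Th17 library. With any library or number left out, the log2 change of Il17a in Th17 cells stayed between -3.97 and -3.35.

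Il22 in the sufficient IL-7 library BASAL960 stood at 22.8 normalized counts, from 27 reads, with a gap of 0.963 of the range, again on normalized counts only. The other 3 sufficient IL-7 libraries had 0, 0 and 1 reads. Chance flags about 1 in 20 groups, and 16 groups of the 4 genes were looked at.

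The deletion effect in Th17 cells minus that in IL-7 cells was -2.85 for Il17a and -1.58 for Il17f on the log2 scale, past the threshold in limma (adjusted p = 0.00262 and 0.0125) but not in limma voom on the restored reads (adjusted p = 0.367 and 0.0548). For Il17a, with at most 5 reads per IL-7 library, the pseudocount bounds the IL-7 effect, so its value does not show that the effect differed in proportion.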

How the results depend on the processing

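Of 825 values under alternatives for 31 results, 771 kept their direction and their side of the threshold, 27 no longer passed, 6 newly passed, 13 turned direction and 8 moved. The deletion effect on Il17a and Il17f in Th17 cells and the rise of all 4 genes under polarization kept direction and call under every alternative run. The cause of the changes below was not tested.

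With a pseudocount of 0.5, Il22 in Th17 cells was at -2.08 and no longer passed (adjusted p = 0.0660). With a pseudocount of 5, Il22 in IL-7 cells turned to -0.16, the interaction turned to -0.15 for Il21, and it newly passed for Il22 at -1.91 (adjusted p = 0.0248). Il21 in Th17 cells passed at -0.47 with only the groups compared, at -0.47 with limma voom and at -0.47 with the replicate block in only those groups (adjusted p = 0.00418, 0.00163 and 0.00510). With voom the interaction was -2.85 for Il17a and -1.53 for Il17f and did not pass. The voom fit and the block with only the groups compared were chosen after seeing the data. In the promoters, 1 of the 4 genes held AGGTCA on the strand of the gene, against 2 on both strands.

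Same-numbered libraries correlated in their deviations from the group means by 0.034 to 0.149 in Th17 cells and by 0.046 to 0.347 in IL-7 cells. Not every pair passed 0.1, but such low values cannot show that the libraries are unpaired. The same number correlated best in 15 of 16 cases, a hint of pairing from the data. Whether the numbers mark paired samples was not settled, and the main fit left the number out. With the replicate block, Il22 in Th17 cells was at -2.08 and kept its call, and in IL-7 cells 713 rows were called with the block, against 506 without it in the fit of all groups, and 2379 with the block, against 577 without it in a fit of only the IL-7 groups. Exchanging deficient and sufficient within numbers cannot go below 0.125, so the pair ratios at -1.53 (Il17a to Il22), -1.81 (Il17a to Il17f), -3.13 (Il17a to Il21), -1.61 (Il22 to Il21) and -1.33 (Il17f to Il21) had an adjusted p of 0.15.

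With 1 library, or the 4 libraries of 1 number, left out, Il22 in Th17 cells ranged from -2.40 to -1.71 and lost its call in 7 cases, among them the number of D3957 (-2.13) and that of D3959 (-1.71). In IL-7 cells Il17f ranged from -0.59 to 0.19 and Il22 from -0.65 to 1.15. The interaction ranged from -1.86 to -1.29 for Il17f, where it was lost without the number of D3957 (-1.60, adjusted p = 0.0527), from -0.16 to 0.70 for Il21, from -3.23 to -1.63 for Il22 and from -0.14 to 0.011 for Sin3a. It passed for Il22 without BASAL960 (-3.23) and without the number of D3960 (-2.96). The pair ratios ranged from -1.63 to -1.37 (Il17a to Il22), -2.16 to -1.58 (Il17a to Il17f), -3.44 to -2.92 (Il17a to Il21), -1.86 to -1.46 (Il22 to Il21) and -1.41 to -1.23 (Il17f to Il21). Called rows ranged from 23 to 639 in IL-7 cells, with 23 without the number of D3957, 99 without that of D3959, 192 without BASALTAM957, 249 without BASAL957, 258 without BASALTAM955 and 287 without BASALTAM959, and from 3261 (without the number of D3957) to 5809 in the interaction.

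Tests with edgeR and DESeq2 were not run, because the whole reads are a reconstruction from normalized values. The voom fit on these restored reads was run instead and carries the same limit. Depth limits IL-7 cells most, where most values of Il17a, Il21 and Il22 are at or under 5 reads. Counting intervals cover counting error only.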

Other observations

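The mean normalized count that the authors' deposited table gives was above the mean of the 16 libraries for each of the 4 genes. It was 7086 against 691 for Il17a, 42065 against 8989 for Il17f, 7200.1 against 2431 for Il21 and 9532 against 2135 for Il22. Which libraries entered the authors' means is not stated in the labels.

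Among genes that could be joined but not tested, Tgfb3, which encodes TGF-β3, had 11.8 ± 9.78 normalized counts in deficient and 258 ± 85.1 in sufficient Th17 cells, and Il17re, a chain of the receptor for IL-17C, had 46.5 ± 16.6 in deficient and 177 ± 54.8 in sufficient Th17 cells (SD, n = 4 each). Both were chosen after their values were seen, and the authors' deposited table gives -4.44 for Tgfb3 and -1.93 for Il17re.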
